A study of Saccharomyces cerevisiae with 6 samples.

Results

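The genes described here are those that build the peroxisome of budding yeast, Saccharomyces cerevisiae, and those that oxidise fatty acids inside it. They were taken by name: every gene of the deposited table called PEX and a number, plus POX1, FOX2, POT1, FAA2, ECI1, SPS19 and CTA1. The rule found 34 of 5795 genes, namely 27 PEX genes and 7 enzyme genes, and used no measured value. Transcripts were measured by strand-specific RNA sequencing in 6 libraries, labelled as biological replicates, in 3 groups of 2. The groups were cells lacking GAT1 (gat1-delta, written gat1Δ below) grown with glutamine, gat1Δ cells grown with proline, and cells lacking DAL80 (dal80-delta, written dal80Δ) grown with glutamine, each named in the labels as an ingredient of the medium. Gat1 is a GATA-family activator of genes for poor nitrogen sources and Dal80 a GATA-family repressor of many of the same genes. Every group carries a deletion, so no comparison here gives the effect of a deletion against an intact strain. The sources used here do not give the carbon source, the strain background, whether the gat1Δ cells of both media were 1 strain, or the way the deletions were made.

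Peroxisomes are organelles bounded by a single membrane, and in yeast they are the site of fatty acid β-oxidation. Their enzymes are made in the cytosol, bound by shuttling receptors that read a targeting signal, docked at the membrane, released inside, and the receptors are then ubiquitinated and pulled back out by a pair of AAA ATPases. Other peroxins insert membrane proteins, divide the organelle and set its size and number. In yeast these genes are best known for their response to oleate, through the transcription factors Oaf1 and Pip2, which bind the oleate response element, and through Adr1, an activator used when glucose is scarce.

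The oleate response elements of the 34 genes are shown because they are a sequence feature that the choice of genes did not use. The motif searched was CGGNNNTNA followed by 9 to 12 bases of any kind and CCG, on both strands, in the 500 bases before the start codon, in the RefSeq sequence of build R64. It was found before 109 of 5772 genes (1.89%) and before 11 of the 34 genes (32.4%). All 7 enzyme genes held it, against 4 of the 27 PEX genes (14.8%). As background, the consensus was first drawn from the promoters of genes of this kind, some of them among these 34, so its presence there is not independent of the choice. The 13 positions found are given 5′ to 3′ on the strand that carries the match, with the fixed bases in capitals and the strand of the chromosome in parentheses.
POX1, distal (chr7:107846-107868, minus): CGGagtTtAatcaactaataCCG
POX1, proximal (chr7:107883-107905, plus): CGGtcaTtAgcggctaatagCCG
CTA1 (chr4:969866-969889, minus): CGGcttTaAcaaatataaactCCG
POT1 (chr9:41610-41632, minus): CGGggaTaAtagtattaacaCCG
FAA2 (chr5:184355-184377, minus): CGGcgtTaAagactgacggtCCG
ECI1 (chr12:707191-707213, minus): CGGgcaTaAgaaatattattCCG
SPS19 (chr14:259412-259435, plus): CGGcgtTaAgtatatcaaactCCG
FOX2, proximal (chr11:457305-457325, plus): CGGcgtTaAcaaatttccCCG
FOX2, distal (chr11:457337-457358, plus): CGGactTaAaactaggcttCCG
PEX5 (chr4:950388-950409, minus): CGGagtTaAtcgcgatgatCCG
PEX13 (chr12:537116-537139, minus): CGGaaaTaAaaaaaatttggcCCG
PEX6 (chr14:22754-22777, minus): CGGcgaTaAtcgtcaacacttCCG
PEX11 (chr15:48756-48778, minus): CGGcatTtAtctcggagaacCCG

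All 13 positions lay between 113 and 312 bases before the start codon. The positions of CTA1 and POT1 and the proximal position of POX1 matched the motif on both strands. POX1 and FOX2 each held a pair of positions. Both positions of POX1, the acyl-CoA oxidase gene, stand within the following 150 bases of its promoter (chr7:107808-107957, plus strand), with the fixed bases of every match in capitals.
POX1 promoter: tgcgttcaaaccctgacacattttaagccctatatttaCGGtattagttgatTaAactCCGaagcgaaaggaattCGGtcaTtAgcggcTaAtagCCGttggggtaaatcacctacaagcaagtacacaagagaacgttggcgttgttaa
A match of letters is a description and not a measured binding site. The GATA motif GATAAG, the core sequence read by Gat1 and Dal80, was found in the same windows of 10 of the 34 genes (29.4%) and of 1310 of 5772 genes (22.7%). Among them were FAA2, FOX2, PEX2, PEX3, PEX4, PEX15, PEX17, PEX19 and PEX34, and no copy overlapped an oleate response element.

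**Figure D1:**
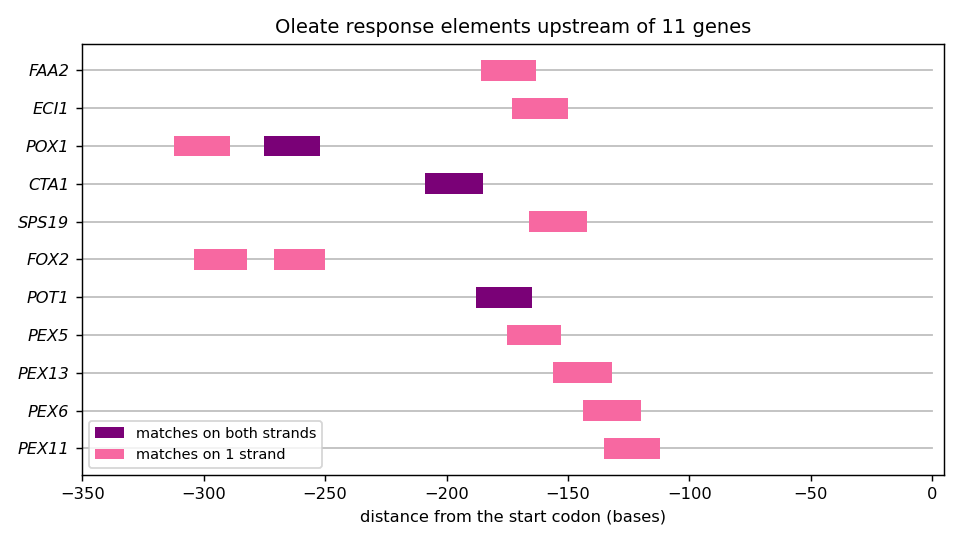
Positions of the oleate response element before the start codon (horizontal axis, bases) of the 11 genes that hold it; dark bars match on both strands and light bars on 1 strand. The 13 positions lie between 113 and 312 bases before the start codon, and POX1 and FOX2 have 2 each.

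The libraries held 17009715 to 34718641 recovered reads, and the authors had scaled them to nearly equal totals over genes. GAT1 had 1.11 to 3 scaled reads in the 4 gat1Δ libraries and 710 and 564 in dal80Δ. DAL80 had 0.443 and 0 scaled reads in dal80Δ, and in gat1Δ cells 1.75 and 0.556 with glutamine against 195 and 304 with proline, so its low level does not by itself tell the strains apart in glutamine. The strains also differed in mating-type transcripts. Summed over 7 a-specific genes, the glutamine-grown gat1Δ libraries had 193 and 171 scaled reads, the proline-grown ones 6517 and 4922, and the dal80Δ ones 27468 and 25721. In the same order, 4 alpha-specific genes summed to 36055 and 36270, 84262 and 89581, and 448 and 433, and none of the 11 genes was at 0 in any library. Both sums thus differed between genotypes and between media. The alpha-specific sum was higher in proline mostly through MF(ALPHA)1, at 3.70 times its glutamine mean. STE3 and SAG1 stood at 1.43 and 1.48 times theirs, while MF(ALPHA)2 overlapped, with 2904 and 2971 scaled reads in glutamine and 2381 and 4881 in proline. The part of mating type in the comparisons below was not tested. In bulk samples of this kind, fewer cells that express a gene and less RNA per cell cannot be told apart.

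The 34 genes were low to moderately expressed in glutamine. Their median density in gat1Δ glutamine was 132 scaled reads per kilobase of gene, against 264 for all genes, and 8 of 34 lay above that all-gene median. In gat1Δ proline the medians were 281 and 428, with 10 of 34 above, and in dal80Δ they were 131 and 240, with 8 of 34 above. In gat1Δ glutamine the densities ran from 2.33 for PEX18 to 1360 for PEX11, which encodes the main division factor of the membrane. PEX21, which encodes a co-receptor, stood 12th in density in gat1Δ glutamine (216 scaled reads per kilobase) and first in proline (3169). All 34 genes passed the filter, which asked for 10 or more scaled reads in 2 or more libraries, and 32 reached 10 in all 6. PEX18 passed through the proline libraries alone, and POT1 through the proline and dal80Δ libraries, so these genes had to differ from gat1Δ glutamine to be tested at all.

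**Figure D2:**
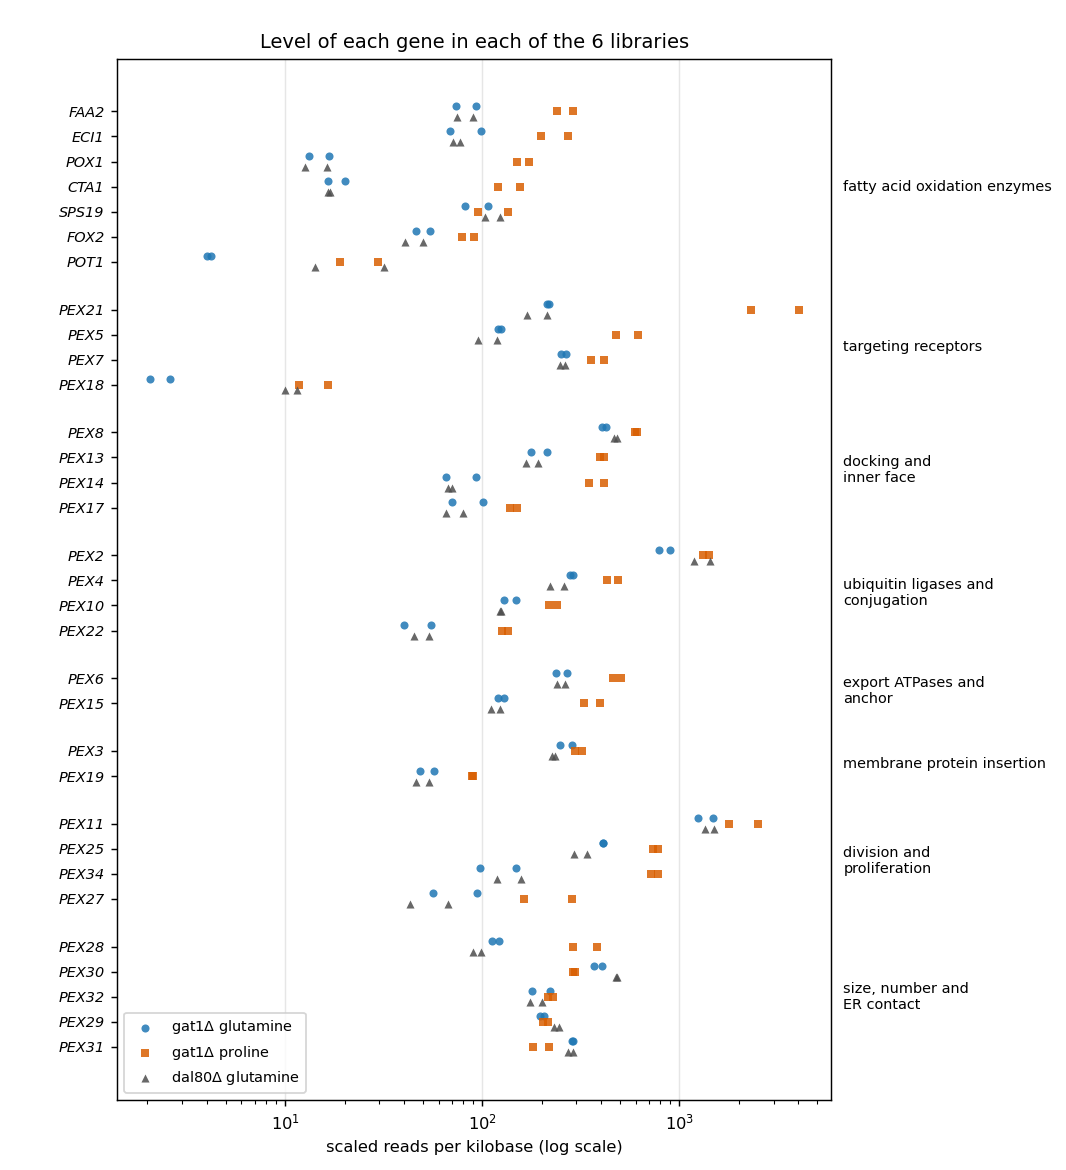
Level of 32 of the 34 genes (rows, grouped by role) in each of the 6 libraries, as scaled reads per kilobase on a log axis; circles are gat1Δ glutamine, squares gat1Δ proline and triangles dal80Δ glutamine. The proline squares lie to the right for most genes, farthest for PEX21, and PEX30 and PEX31 are the genes whose squares lie to the left of both other groups.

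The first comparison, of gat1Δ cells in proline and in glutamine, asks how these transcripts differed between the media in cells without GAT1. Since it is not given whether these cells were 1 strain, medium and strain cannot be told apart here. Most of the 34 genes were higher in proline. Leaving aside POT1 and PEX18, which the filter could keep only where they differed, the genes for 5 of 6 oxidation enzymes, 3 of 3 targeting receptors, 4 of 4 docking proteins and 3 of 3 parts of the export machinery passed the test upward as deposited, with ratios of means of up to 14.7 for PEX21. So did 5 of 5 genes of the ubiquitin ligases and conjugation and 4 of 4 of division, against 1 of 2 for membrane protein insertion and 1 of 5 for size, number and contact with the endoplasmic reticulum. Under the deposited scaling and all 3 rescalings, the upward counts in the same order were 4 of 6, 2 of 3, 2 of 4, 1 of 3, 2 of 5, 2 of 4, 0 of 2 and 1 of 5. Of all genes tested, 28.6% were higher in that way, and counts such as 1 of 3 or 1 of 5 lie near that share. PEX30 and PEX31, a related pair of membrane proteins that regulate peroxisome size and number, were the 2 genes that fell. In the limma test, 28 of 34 genes (82.4%) were higher, where 56.5% of all genes tested were higher, and 2 (5.88%) were lower, where 15.1% of all genes were lower. Without PEX18 and POT1 the counts were 26 higher and 2 lower of 32. The median log2 fold change was 0.74 over the 34 genes and 0.50 over all genes tested.

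The median gene itself lay 0.50 above 0 on the log2 scale, and the share of higher genes depended on the scaling. With TMM factors, which assume that most genes do not change, 18 genes were higher (52.9%, against 33.8% of all genes) and 3 lower (8.82%, against 29.8% of all genes). The median log2 fold change was then 0.38 for the 34 genes and 0.06 for all genes. The 18 genes higher with TMM scaling, and that median, include PEX18 and POT1, which the filter could keep only where they differed. As deposited and under TMM, RLE and snoRNA scaling alike, 28.6% of all genes were higher and 14.0% lower. Of the 34 genes 16 were higher in that way, and without PEX18 and POT1 it was 14 of 32 (43.8%). The 14 included POX1, CTA1, FAA2, ECI1, PEX5, PEX13, PEX14, PEX15, PEX21, PEX22, PEX27, PEX28 and PEX34. Among the lower genes, PEX31 kept its call under all 3 rescalings and PEX30 lost it with snoRNA scaling. The log2 fold changes below are those of the deposited scaling on the log2(density + 0.0229) scale, the density in scaled reads per base, which understates the change of low genes. Errors are standard errors from limma, n = 2 libraries per group, with p-values adjusted over all genes.

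**Figure D3:**
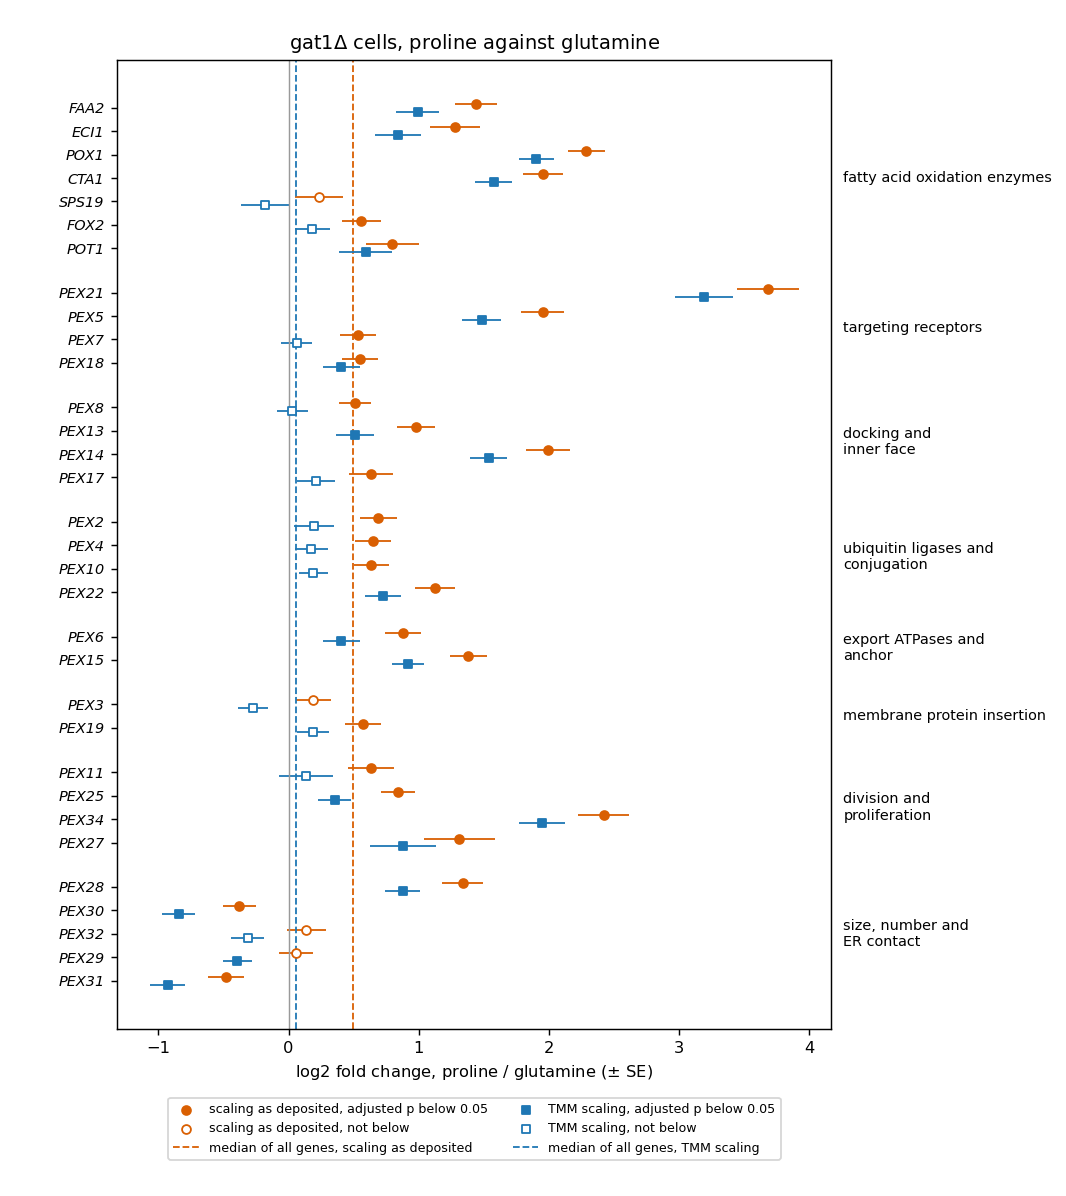
Log2 fold change, proline over glutamine in gat1Δ cells (horizontal axis, with SE), of 32 of the 34 genes under the deposited scaling (circles) and TMM scaling (squares); filled symbols have an adjusted p below 0.05 and dashed lines mark the median of all genes, 0.50 and 0.06. PEX21 lies farthest right at 3.68 as deposited, and PEX31 farthest left at -0.48.

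The enzymes of the oxidation spiral moved by very different amounts. POX1 encodes acyl-CoA oxidase, the first and rate-setting step. It had 29.8 and 37.3 scaled reads in gat1Δ glutamine and 389 and 339 in proline, with 28.4 and 36.7 in dal80Δ. Both proline libraries stood far above the other 4, at 10.9 times the glutamine mean, and the log2 fold change was 2.29 ± 0.14 (adjusted p = 4.32e-06). The density of POX1 relative to that of FOX2, the gene of the multifunctional enzyme of the next steps, was 0.245 and 0.361 in gat1Δ glutamine and 2.20 and 1.67 in proline. FOX2 itself had 146 and 124 scaled reads in glutamine, 213 and 244 in proline and 110 and 135 in dal80Δ. Its rise in proline (0.56 ± 0.15, adjusted p = 0.00783) was not a call with TMM scaling (0.18, adjusted p = 0.268).

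POT1 encodes the thiolase that closes the spiral and is the classic cargo of the Pex7 import route. It had 5.25 and 5.01 scaled reads in gat1Δ glutamine, 37.0 and 23.9 in proline, and 17.7 and 39.8 in dal80Δ. Both other groups lay above gat1Δ glutamine and overlapped each other. Since the filter kept POT1 through those groups, its values are a description. In proline the log2 fold change was 0.80 ± 0.20. Because its counts were low, the ratio of recovered reads is given too: 76 reads against 15, a ratio of 5.66 after scaling with a 95% interval of 3.22 to 10.6 that covers counting error only.

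FAA2 encodes the peroxisomal medium-chain acyl-CoA synthetase, which activates fatty acids inside the organelle. It had 165 and 207 scaled reads in gat1Δ glutamine, 537 and 646 in proline and 166 and 201 in dal80Δ. The proline libraries stood clear of the rest (1.44 ± 0.16, adjusted p = 7.58e-05). FAA2 shares 160 bases with BUD25 on the opposite strand. The libraries keep strand, but the sources used here do not say whether the counting used it.

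The auxiliary enzymes for unsaturated fatty acids differed from each other. ECI1, the enoyl-CoA isomerase, had 83.2 and 57.9 scaled reads in gat1Δ glutamine, 167 and 230 in proline and 59.8 and 64.8 in dal80Δ. It was higher in both proline libraries (1.28 ± 0.19, adjusted p = 0.000357). SPS19, the 2,4-dienoyl-CoA reductase, had 71.8 and 94.0 scaled reads in glutamine, 84.0 and 119 in proline and 90.8 and 108 in dal80Δ. Its groups overlapped, and its log2 fold change of 0.23 had a 95% interval of -0.19 to 0.65 (adjusted p = 0.28).

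CTA1 encodes catalase A, which destroys the hydrogen peroxide that Pox1 makes. It had 25.4 and 31.2 scaled reads in gat1Δ glutamine, 240 and 186 in proline and 26.1 and 25.5 in dal80Δ. Only the proline libraries were high, at 7.54 times the glutamine mean (1.96 ± 0.15, adjusted p = 1.33e-05). The cytosolic catalase gene CTT1 went the other way, with 545 and 318 scaled reads in gat1Δ glutamine and 251 and 208 in proline (-0.77 ± 0.22, adjusted p = 0.0122). That call was lost without gat1Δ glutamine replicate 1 or gat1Δ proline replicate 2 (adjusted p of up to 0.0706), and the TMM value was -1.20. The density of CTA1 relative to CTT1 was thus 0.0508 and 0.107 in glutamine and 1.04 and 0.976 in proline.

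**Figure D4:**
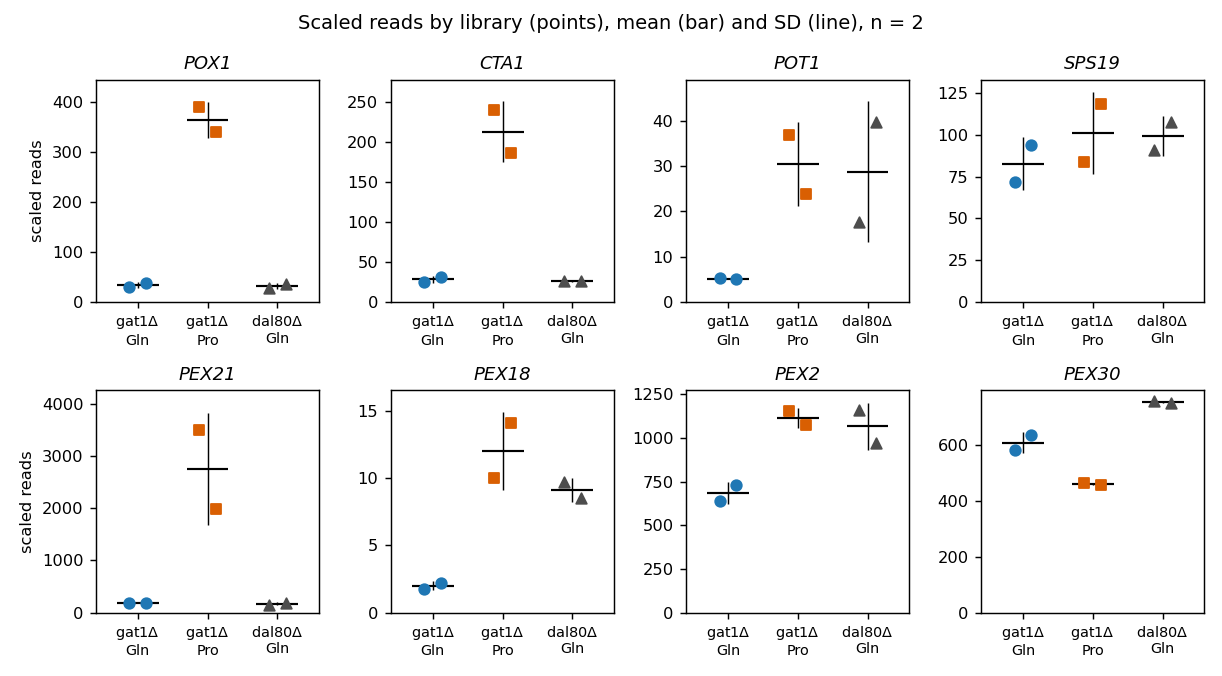
Scaled reads (vertical axis, from 0) in each library of 8 genes chosen as contrasting patterns; points are libraries, horizontal bars means and vertical lines SDs of 2 libraries. POX1, CTA1 and PEX21 are high in the proline libraries alone, POT1, PEX18 and PEX2 are high in proline and in dal80Δ, the groups of SPS19 overlap, and PEX30 is lowest in proline.

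The targeting receptors showed the largest change of any PEX gene. Pex5 carries proteins with the common C-terminal signal, and Pex7 carries those with the N-terminal signal together with a co-receptor, either Pex18 or Pex21. PEX21 (chr7:969187-970053) had 189 and 185 scaled reads in gat1Δ glutamine, 3502 and 1992 in proline and 147 and 185 in dal80Δ. The proline libraries stood 14.7 times above the glutamine mean although they differed from each other, and the log2 fold change was 3.68 ± 0.24 (adjusted p = 5.03e-06), at percentile 99.2 of all genes tested. PEX18, the paralog, was at a low level throughout, with 1.75 and 2.23 scaled reads in glutamine, 10 and 14.1 in proline and 9.75 and 8.50 in dal80Δ. In recovered reads that was 33 against 6 in proline, a ratio of 6.14 after scaling (95% counting interval 2.54 to 17.9), with a log2 fold change of 0.55 ± 0.14, given as a description because PEX18 passed the filter through the proline libraries. PEX21 exceeded PEX18 in density 106- and 81.8-fold in gat1Δ glutamine, 344- and 139-fold in proline and 14.8- and 21.4-fold in dal80Δ. Since the genes are paralogs, reads that match both could have been split between them, and the sources used here do not say how such reads were counted.

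PEX5 had 222 and 229 scaled reads in gat1Δ glutamine, 1130 and 874 in proline and 219 and 174 in dal80Δ. Its proline libraries were at 4.45 times the glutamine mean (1.95 ± 0.16, adjusted p = 1.91e-05). PEX7 was higher by 0.53 ± 0.14 (adjusted p = 0.00648), close to the median gene, and was not called with TMM scaling (0.06). A further PEX5-like receptor gene, listed in the table only by its identifier YMR018W and named PEX9 in RefSeq, does not belong to the 34 genes. It had 14.01 and 10.6 scaled reads in glutamine, 29.0 and 41.0 in proline and 7.98 and 10.1 in dal80Δ (0.56, adjusted p = 0.00783, in proline; 0.35, adjusted p = 0.0626, with TMM scaling).

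At the docking site, PEX14 encodes the membrane protein that receives loaded receptors. It had 95.4 and 66.8 scaled reads in gat1Δ glutamine, 425 and 355 in proline and 72.2 and 68.5 in dal80Δ. The proline libraries were at 4.81 times the glutamine mean and overlapped no other (1.99 ± 0.17, adjusted p = 2e-05). Its partner PEX13 rose by 0.98 ± 0.14 (adjusted p = 0.000339). PEX17, a further docking subunit, and PEX8, which links docking to the ubiquitin ligases on the inner face, had log2 fold changes of 0.63 and 0.51 and passed the test, but neither did with TMM scaling (0.21 and 0.03), and PEX17 also lost it without gat1Δ glutamine replicate 2 (adjusted p = 0.0519).

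Among the receptor-recycling genes, the RING-finger ubiquitin ligase subunit genes PEX2 and PEX10 changed by 0.69 and 0.64, and the ubiquitin-conjugating enzyme gene PEX4 by 0.65, all past the threshold. PEX22, which anchors Pex4 to the membrane, had 29.8 and 21.7 scaled reads in gat1Δ glutamine, 68.0 and 72.9 in proline and 29.2 and 24.4 in dal80Δ (1.13 ± 0.16 in proline, adjusted p = 0.000234). With TMM scaling PEX22 kept the call, and PEX2, PEX10 and PEX4 did not (0.19, 0.19 and 0.17). The AAA ATPase gene PEX6 changed by 0.88 (adjusted p = 0.000453). It was called with TMM scaling (0.40), but not with RLE (0.36, adjusted p = 0.0579) or snoRNA scaling (0.60, adjusted p = 0.101). PEX15, the membrane anchor of that ATPase pair, had 149 and 138 scaled reads in glutamine, 456 and 379 in proline and 128 and 142 in dal80Δ. It was high in both proline libraries (1.38 ± 0.14, adjusted p = 5.22e-05). Of the genes for inserting membrane proteins, PEX19, the chaperone and receptor, was higher by 0.57 (adjusted p = 0.00533, TMM 0.19). PEX3, its docking partner, had a log2 fold change of 0.19 with a 95% interval of -0.12 to 0.50 (adjusted p = 0.227).

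All 4 genes of division and proliferation were higher as deposited, where 56.5% of all genes were, 3 of 4 with TMM scaling and 2 of 4 with RLE and with snoRNA scaling. PEX34, which acts with the Pex11 family in setting peroxisome number, had 64.8 and 42.3 scaled reads in gat1Δ glutamine, 311 and 339 in proline and 51.4 and 68.0 in dal80Δ. Its proline mean was 6.07 times that in glutamine (2.42 ± 0.20, adjusted p = 1.53e-05). The Pex11-family gene PEX27 had 107 and 63.4 scaled reads in glutamine, 322 and 184 in proline and 48.7 and 75.4 in dal80Δ, so that its replicates were spread widely (1.31 ± 0.28, adjusted p = 0.00237). PEX25, of the same family, had 486 and 487 scaled reads in glutamine, 918 and 869 in proline and 400 and 347 in dal80Δ (0.84 ± 0.13 in proline, adjusted p = 0.000447). The call was lost with RLE (0.30, adjusted p = 0.0677) and with snoRNA scaling (0.55, adjusted p = 0.136). PEX11 itself, the most abundant per length of the 34 in glutamine, changed by 0.63 ± 0.18 (adjusted p = 0.0108). That call was lost without gat1Δ glutamine replicate 1 (adjusted p = 0.0617), without gat1Δ proline replicate 2 (adjusted p = 0.0689) and with TMM scaling (0.14).

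The genes that set peroxisome size and number from the membrane and the endoplasmic reticulum were split. PEX28 had 212 and 196 scaled reads in gat1Δ glutamine, 662 and 500 in proline and 156 and 171 in dal80Δ (1.34 ± 0.16 in proline, adjusted p = 0.000103). PEX30, which shapes the endoplasmic reticulum sites where peroxisomes form, had 580 and 634 scaled reads in glutamine, 462 and 455 in proline and 756 and 749 in dal80Δ. Its fall in proline (-0.38 ± 0.13, adjusted p = 0.0229, TMM -0.84) lost its call without any 1 of 5 libraries, gat1Δ glutamine replicate 1 being the exception (adjusted p 0.0553 to 0.0992), while its groups did not overlap. PEX31, its paralog, had 395 and 399 scaled reads in glutamine, 250 and 304 in proline and 378 and 399 in dal80Δ (-0.48 ± 0.14 in proline, adjusted p = 0.0123, TMM -0.93; adjusted p = 0.0746 without gat1Δ proline replicate 1). The density of PEX30 relative to PEX28 was 3.03 and 3.58 in glutamine, 0.772 and 1.01 in proline and 5.38 and 4.86 in dal80Δ. PEX32 and PEX29, further members of the group, had log2 fold changes of 0.14 (adjusted p = 0.421) and 0.06 (adjusted p = 0.703). With TMM scaling PEX29 was lower (-0.39, adjusted p = 0.0131). YGR168C, named PEX35 in RefSeq and not among the 34 genes, changed by 0.59 (adjusted p = 0.0198). That call was lost under all 3 rescalings (0.17, adjusted p = 0.405, with TMM) and without gat1Δ glutamine replicate 2 or gat1Δ proline replicate 1 (adjusted p of up to 0.129).

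Read by promoter, 10 of the 11 genes with an oleate response element were higher in proline and none lower, with a median log2 fold change of 0.98. SPS19 was the 1 without a call, and without POT1 the count was 9 of 10. Under the deposited scaling and all 3 rescalings 7 of the 11 were higher, or 6 of 10 without POT1. Of all genes tested, 56.5% were higher as deposited and 28.6% under every scaling. FOX2, PEX6 and PEX11 lost the call in at least 1 rescaling. The 23 genes without the element had 18 higher and 2 lower and a median of 0.64, with 9 higher under every scaling, or 8 of 22 (36.4%) without PEX18. They include PEX21, PEX34 and PEX14. All 23 are PEX genes, while the 11 with the element include all 7 enzyme genes, so the element goes together with the kind of gene. The 4 PEX genes with the element were all higher as deposited, with a median of 0.93. Among the 93 other genes tested that hold the element, 56 (60.2%) were higher and 13 lower, with a median of 0.56, near the share and median of all genes, and 31 (33.3%) were higher under every scaling. The difference between genes with and without the element was not tested.

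The rest of the pathway was read from lists by function, against 56.5% of all genes higher and 15.1% lower as deposited, and 33.8% and 29.8% with TMM scaling. Of 5 regulators, 3 were higher, 1 lower and 1 had no call (2 higher and 1 lower with TMM scaling), shares near those of all genes. PIP2, which encodes the oleate-responsive partner of Oaf1, had 285 and 273 scaled reads in gat1Δ glutamine, 2108 and 1429 in proline and 293 and 303 in dal80Δ, with both proline libraries high (2.38 ± 0.18, adjusted p = 1.17e-05). The promoter of PIP2 also held 1 position of the element. OAF1, chosen after its value was seen, changed by 0.45 (adjusted p = 0.0198) as deposited and by -0.0028 with TMM scaling, and its call was also lost without gat1Δ glutamine replicate 2 or gat1Δ proline replicate 2 (adjusted p of up to 0.0904). ADR1 fell, from 1942 and 2060 scaled reads in glutamine to 1054 and 1057 in proline (-0.87 ± 0.12, adjusted p = 0.000284).

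Acetyl units leave the yeast peroxisome through the glyoxylate cycle or as acetylcarnitine, and all 6 genes of that list were higher in proline, 5 of them with TMM scaling as well. The 6 include CRC1, with 9.63 and 8.34 scaled reads in gat1Δ glutamine, 129 and 66.2 in proline and 18.2 and 27.1 in dal80Δ. CRC1 lay below 10 in gat1Δ glutamine, so the filter could keep it only through the other groups, and its rise is a description. YAT2, a carnitine acetyltransferase gene, had 198 and 200 scaled reads in gat1Δ glutamine, 5346 and 2194 in proline and 144 and 178 in dal80Δ (3.73 ± 0.33, adjusted p = 2.4e-05). CIT2, the peroxisomal citrate synthase gene, had 291 and 293 in glutamine, 3029 and 3059 in proline and 257 and 272 in dal80Δ (3.25 ± 0.12, adjusted p = 3.09e-07). Of 12 further genes of fatty acid oxidation and supply, 6 were higher and 3 lower (4 and 4 with TMM scaling), again near the shares of all genes. The largest rise of the list was in PXA2, a subunit of the peroxisomal fatty acyl transporter (1.24), and the largest fall in FAT1, a fatty acid transporter and very long chain acyl-CoA synthetase (-1.02). FAA1, the densest gene of that list in glutamine and the main cytosolic acyl-CoA synthetase gene, was lower (-0.53, adjusted p = 0.0158, TMM -1.03). As deposited its call was lost without gat1Δ glutamine replicate 2 or gat1Δ proline replicate 1 (adjusted p of up to 0.0934).

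Of 5 genes of fatty acid synthesis, 3 were lower and 1 higher (3 and 0 with TMM scaling). The 3 were FAS1, FAS2 and ACC1, which encode the fatty acid synthase subunits and acetyl-CoA carboxylase and were lower under every scaling. OLE1, the desaturase gene, was higher as deposited (0.53, adjusted p = 0.0146) but not with TMM scaling (0.02) or without gat1Δ glutamine replicate 1 (adjusted p = 0.100). FAS2, ACC1 and OLE1 were named after their values were seen. FAS1 went from 109103 and 110134 scaled reads in glutamine to 39058 and 53239 in proline (-1.26 ± 0.16, adjusted p = 0.000171). Of 7 genes of peroxisome inheritance, fission and turnover, 3 were higher and 2 lower (2 and 2 with TMM scaling), with the largest rise in ATG11, an adaptor of selective autophagy (1.15), and the largest fall in VPS1, a dynamin-like fission gene (-0.90). Of 7 genes for other peroxisomal matrix proteins, 4 were higher and 1 lower (3 and 3 with TMM scaling). On both lists the share higher as deposited was close to or below that of all genes. STR3, a cystathionine β-lyase gene, rose by 2.13, LYS1, the last step of lysine synthesis and the densest of the list in proline, by 1.79, and GPD1, for glycerol synthesis, changed by -0.89.

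The second comparison, of dal80Δ with gat1Δ cells in glutamine, asks how the strains differed in 1 medium. It shares the gat1Δ glutamine libraries with the first, so the 2 sets of values are not independent. Of the 34 genes, PEX2, for a ubiquitin ligase subunit, was the 1 that passed the threshold, at 1.56 times its gat1Δ mean. The low-count genes POT1 and PEX18 had larger ratios of means, 5.61 and 4.59, and did not pass. In the limma test 1 of 34 was higher (2.94%, against 3.97% of all genes) and 0 were lower (against 1.48% of all genes). With TMM scaling 2 were higher (5.88%, against 6.19% of all genes) and 0 lower (against 0.894% of all genes). The second was POT1, which the filter kept only through the proline and dal80Δ libraries, so that call is a description. The share called was thus near the background. The median log2 fold change was -0.07 over the 34 genes and -0.15 over all genes.

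PEX2 (chr10:36919-37734) had 639 and 730 scaled reads in gat1Δ glutamine and 1163 and 972 in dal80Δ, with 1155 and 1071 in gat1Δ proline. Both dal80Δ libraries lay above both gat1Δ glutamine libraries (0.62 ± 0.14, adjusted p = 0.0404). Without any 1 of these 4 libraries the call was lost (adjusted p 0.0635 to 0.305), as it was with snoRNA scaling (0.50, adjusted p = 0.423), with the pseudocount multiplied by 10 (0.52, adjusted p = 0.0523) and with the replicate block (adjusted p = 0.0840). The test of edgeR on recovered reads gave 0.79 (adjusted p = 0.0089). PEX10, for another ligase subunit, differed by -0.14 (adjusted p = 0.508). The density of PEX2 relative to PEX10 was 5.27 and 6.91 in gat1Δ glutamine, 5.93 and 6.004 in proline and 11.5 and 9.64 in dal80Δ.

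The low-count genes POT1 and PEX18, for a cargo and a co-receptor of the Pex7 import route, had higher values in dal80Δ without passing the limma test as deposited. POT1 differed by 0.74 ± 0.20 (adjusted p = 0.0702) and PEX18 by 0.41 ± 0.14 (adjusted p = 0.111). POT1 was called with TMM, RLE and snoRNA scaling (0.86, 0.86 and 0.70), and both genes with edgeR on recovered reads (2.61 and 2.28). In recovered reads the ratios to gat1Δ glutamine were 5.45 for POT1 (115 reads against 15, 95% counting interval 3.17 to 10.04) and 4.50 for PEX18 (38 reads against 6, interval 1.89 to 13.0). These ratios and calls are descriptions, since neither gene reached the filter's level in gat1Δ glutamine, and the intervals cover counting error only. The POT1 values of the dal80Δ replicates, 17.7 and 39.8 scaled reads, were far apart.

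**Figure D5:**
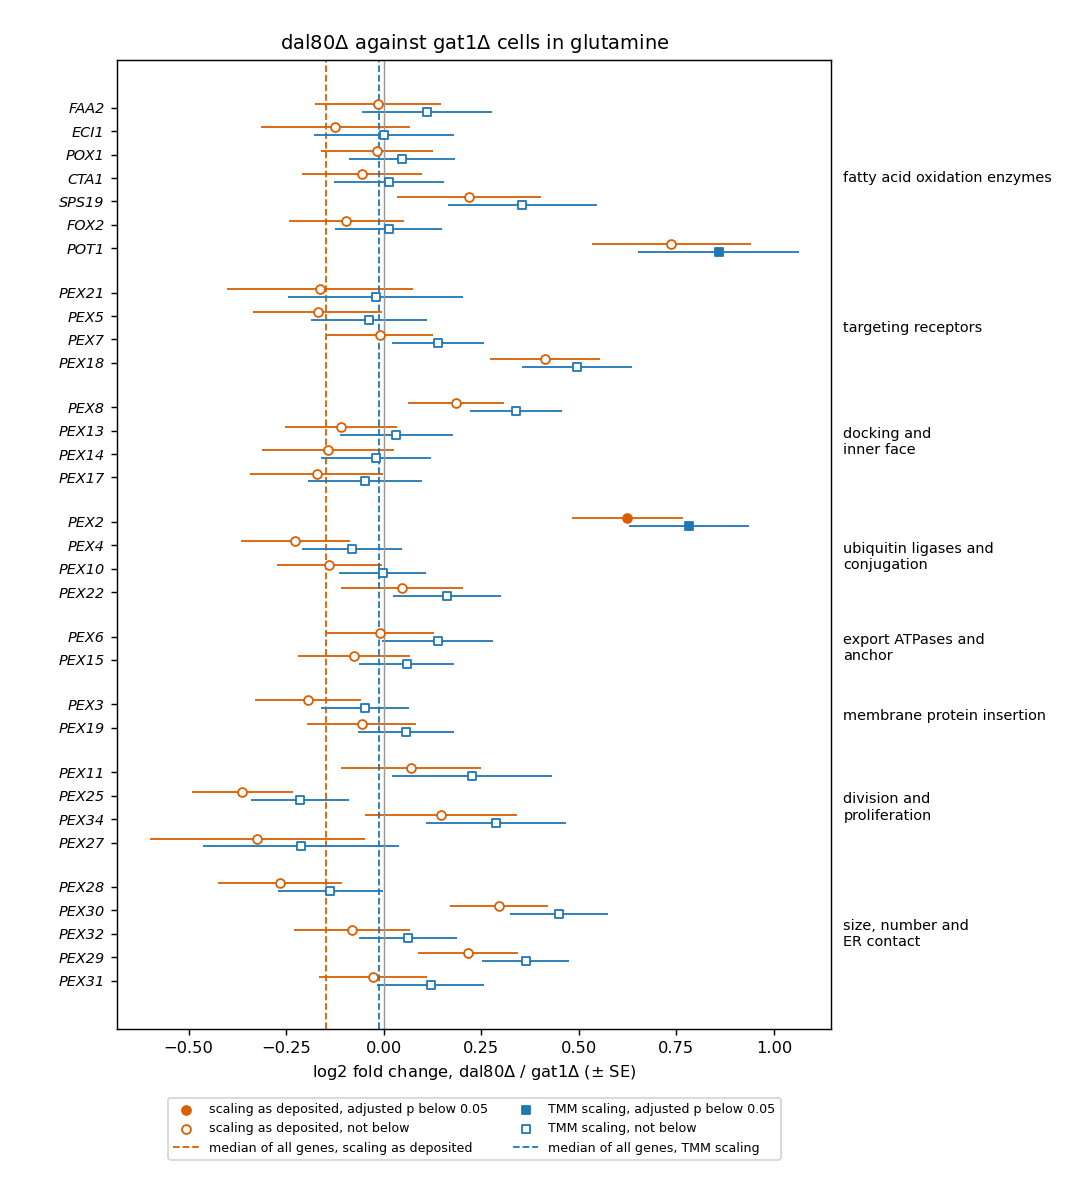
Log2 fold change, dal80Δ over gat1Δ cells in glutamine (horizontal axis, with SE), of 32 of the 34 genes under the deposited scaling (circles) and TMM scaling (squares); filled symbols have an adjusted p below 0.05 and dashed lines mark the medians of all genes. PEX2 is filled under both scalings, POT1 under TMM alone, and the other 30 genes plotted under neither.

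The genes that changed most in proline gave small differences between the strains. POX1 differed by -0.02 (95% interval -0.34 to 0.31), CTA1 by -0.06 (-0.40 to 0.29), PEX21 by -0.16 (-0.70 to 0.38), PEX34 by 0.15 (-0.30 to 0.59), PEX14 by -0.14 (-0.53 to 0.24) and PEX5 by -0.17 (-0.54 to 0.20). These intervals hold for the log2(density + 0.0229) scale, which understates differences of low genes, and do not show equality. POX1 and CTA1 had densities below the added 0.0229 per base in gat1Δ glutamine, at 14.9 and 18.3 scaled reads per kilobase. Their intervals therefore do not bound the difference in transcript level. Their ratios of means, dal80Δ over gat1Δ in glutamine, were 0.970 and 0.913. PEX25 had the largest negative difference of the 34 (-0.36, adjusted p = 0.124), followed by PEX27 (-0.32, adjusted p = 0.447). Around the 34 genes, CTT1 stood out with 2024 and 2381 scaled reads in dal80Δ against 545 and 318 in gat1Δ (2.29 ± 0.22, adjusted p = 0.000421), which put the density of CTA1 at 0.0141 and 0.0117 of that of CTT1. AGP2, the plasma membrane gene needed for carnitine uptake, was higher in dal80Δ (0.89 ± 0.14, adjusted p = 0.0074), as was GPD1 (0.70, adjusted p = 0.0474). With snoRNA scaling both calls were lost (0.76, adjusted p = 0.262, and 0.57, adjusted p = 0.403). The call of AGP2 was also lost without dal80Δ replicate 1 (adjusted p = 0.0911), and that of GPD1 without any 1 of the 4 glutamine libraries (adjusted p of up to 0.236). ADR1 was lower as deposited, with 1256 and 1270 scaled reads in dal80Δ (-0.63 ± 0.12, adjusted p = 0.0227), and at adjusted p = 0.0522 with TMM scaling. Its call was also lost with RLE and snoRNA scaling (adjusted p = 0.0515 and 0.263) and without any 1 of the 4 glutamine libraries (adjusted p of up to 0.199).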

How the data were processed

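Total RNA was depleted of ribosomal RNA and made into stranded libraries, read as pairs, per the labels' protocols. TopHat and build R64 are named in the submitters' processing notes. The sources used here do not give the counting program or how it treated strand and multiply matching reads. The authors deposited a read count and a density signal per feature and library. The density equalled the count divided by feature length. The count was whole in gat1Δ proline replicate 1 and scaled in the other libraries, from which whole reads were recovered for 100% of positive values (tolerance 0.01 reads). A further 6 columns, each the sum of a group's libraries, were not used.

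Of 5795 genes, the 5594 that reached 10 scaled reads in 2 or more libraries entered limma 3.58.1 (R 4.3.3, intensity trend) on log2 of density plus a pseudocount of 0.0229. All 6 libraries entered, leaving 3 residual degrees of freedom, with Benjamini-Hochberg adjustment over all genes and a threshold of 0.05. Alternatives changed the filter and pseudocount, rescaled by TMM, RLE or snoRNA totals, ran edgeR 4.0.16 and DESeq2 1.42.0 on recovered reads, fitted the 2 compared groups alone, blocked on replicate number, and left out 1 library at a time. The scripts were tested on simulated data. Replicates of a group had Pearson r of 0.988 to 0.995 across genes. That they came from separate cultures rests on the labels.

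Members and lists were chosen with earlier results of these data known. Every member was named except 2, which enter the counts and are not reported here by name. Values per library were given for the 7 enzymes, the 8 PEX genes with the largest change in proline and the 4 with the largest in dal80Δ; lists were given as counts with up to 3 genes. The genes in the plot of selected genes, the paired density ratios, PEX30, PEX31, OAF1, CRC1, FAS2, ACC1, OLE1, PEX9 and PEX35 were added after their values were seen. The positions of all 34 genes matched RefSeq R64, which supplied the sequences and names.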

Additional observations from a re-analysis of the deposited data

How the results depend on the processing

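Low counts limit PEX18 and POT1, and 2 libraries a group limit every test. For proline against glutamine, the 30 calls among the 34 genes became 17 with snoRNA scaling and 19 with DESeq2, and 28 to 29 with a library left out. Their median log2 fold change of 0.74 moved to 0.90 and 0.49 with the pseudocount divided by and multiplied by 10, to 0.38, 0.33 and 0.51 with TMM, RLE and snoRNA scaling, and to 0.40 with edgeR and 0.34 with DESeq2. PEX29 turned to -0.39 with TMM scaling, -0.44 with RLE scaling, -0.44 with edgeR and -0.50 with DESeq2; with RLE scaling PEX32 turned to -0.36, PEX3 to -0.32 and PEX8 to -0.023, and PEX8 was also -0.023 with DESeq2. PEX17 lost its call without gat1Δ glutamine replicate 2 (adjusted p = 0.0519), and PEX30 in the fit of the 2 groups alone (adjusted p = 0.0571). For dal80Δ against gat1Δ, the 1 call became 3 with the pseudocount divided by 10, 0 with it multiplied by 10, 2 with TMM and RLE scaling and DESeq2, 3 with edgeR, and 0 to 1 with a library left out. Without dal80Δ replicate 1 the called gene was POT1 in place of PEX2 (adjusted p = 0.041). With snoRNA scaling the 1 called gene was likewise POT1 in place of PEX2. The median of -0.07 moved to 0.052 with TMM scaling, 0.070 with edgeR and 0.063 with DESeq2. The cause was not tested. Same-numbered replicates did not deviate together (r of 0.00984 for the media, -0.250 between strains). With the replicate block 0 of the 34 genes were called between strains and 30 between media. A crossed replicate block, chosen after seeing the data, gave 2 calls among the 34 genes between strains.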
